A study of Mus musculus with 15 samples.

Results

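The 9 genes described here write, read, maintain or remove 5-methylcytosine in mouse DNA: Uhrf1, Dnmt1, Hells, Dnmt3a, Dnmt3b, Dnmt3l, Tet1, Tet2 and Tet3. They were picked as a group with earlier results of these data known and found in the files by gene symbol, and each symbol matched 1 of the 32285 genes counted in every library. The counts came from single-cell RNA sequencing of dissociated testes of adult DBA/2J mice, with 1 library per mouse and 3 mice in each of 5 groups. JQ1, a small molecule that occupies the bromodomains of BRDT and of its relatives, was injected into the abdomen at 50 mg/kg daily for 3 wk. Testes of treated mice were taken directly after dosing at 10 wk of age (T) or 6 wk after withdrawal at 16 wk (R), and vehicle-injected mice were taken at the same ages (VC-T and VC-R). A single untreated group, 15 wk old by the sample labels (UC), was the control that the study compared with both JQ1 groups, so age and JQ1 cannot be told apart in T against UC.

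Methylation of CpG dinucleotides is copied at each DNA replication by Dnmt1, the maintenance methyltransferase. Uhrf1 binds hemimethylated CpGs and recruits Dnmt1 to them, and Hells is a chromatin remodeler that helps methylation reach nucleosomal DNA. Dnmt3a and Dnmt3b methylate DNA de novo, and Dnmt3l, which has no catalytic activity of its own, stimulates them in the germ line. Tet1, Tet2 and Tet3 are dioxygenases that oxidize 5-methylcytosine and so start its removal. In the male germ line most de novo methylation is laid down in prospermatogonia before birth, and the pattern is then kept through the mitotic divisions of spermatogonia, the last replication before meiosis, meiosis itself and the reshaping of haploid spermatids.

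After filtering, 72362 cells of 101610 barcodes were kept, with 9673587 to 98724982 UMIs (unique molecular identifiers, each standing for 1 captured transcript) per library and a median of 2409 to 4276 UMIs per cell. Of the kept barcodes, 1337 occurred in more than 1 library. Clusters were named from markers that held none of the 9 genes, and the stage and class names used here are short for cells that resemble the named stage by its markers (pachytene-like, spermatid-like and so on). Round spermatids are the spermatid class and late spermatids the spermatozoa class. VC-T 1 had 0 late spermatids, stood apart from the other controls and was left out of the control values, as it was left out of the differential tests in the study. Though it had no JQ1, VC-T 1 resembled the T libraries in makeup, with leptotene/zygotene cells at 0.197% of its spermatocytes. Its Uhrf1 and Dnmt3a levels in round spermatids, given below, were also near those of T. The reason for this likeness was not tested. The T libraries had 1 to 5 late spermatids and 1 to 10 leptotene/zygotene spermatocytes per library, so neither stage could be compared in T. Of all cells, 6079 (8.40%) stayed unnamed, 73.2% of them from R. Among these, a cluster of 171 cells (0.236% of cells; UC 38, VC-R 27, VC-T 68, R 13 and T 25 cells) was kept without a name because its leading genes pointed both to spermatogonia and to spermatocytes, a choice made after its values were seen.

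The promoters of the replication-linked members Uhrf1, Dnmt1 and Hells are shown first. Their control means were highest in differentiating spermatogonia, which still divide. Among germ cell stages the same held for Dnmt3a, Dnmt3b and Tet3 (64.8, 78.6 and 85.0 CPM there). RefSeq (GRCm38.p6) gave 16 start sites for the 9 genes, each with a window of 250 bases before and 50 bases after the start. In these windows the letters TTTGGCGC, TTTGCCGC, TTTCGCGC and TTTCCCGC, which spell the binding motif of the E2F factors that drive S-phase genes, were searched on both strands. Each of them holds a CG, so a match also adds to the CpGs counted below. The motif lay in 3 of the 16 windows, 1 each for Uhrf1, Dnmt1 and Hells and none for the other members, and in 2.265% of 32851 promoters in all. Capitals mark the motif in the 3 sequences, which are written 5′ to 3′ on the strand of the gene.
Uhrf1, chr17:56304063-56304362, plus strand: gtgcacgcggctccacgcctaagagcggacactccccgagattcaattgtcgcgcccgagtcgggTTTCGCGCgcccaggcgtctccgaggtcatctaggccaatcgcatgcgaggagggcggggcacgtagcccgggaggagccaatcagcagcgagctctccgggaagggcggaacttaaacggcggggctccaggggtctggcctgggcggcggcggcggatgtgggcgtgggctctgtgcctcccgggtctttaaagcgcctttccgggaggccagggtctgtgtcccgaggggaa
Dnmt1, chr9:20952574-20952873, minus strand: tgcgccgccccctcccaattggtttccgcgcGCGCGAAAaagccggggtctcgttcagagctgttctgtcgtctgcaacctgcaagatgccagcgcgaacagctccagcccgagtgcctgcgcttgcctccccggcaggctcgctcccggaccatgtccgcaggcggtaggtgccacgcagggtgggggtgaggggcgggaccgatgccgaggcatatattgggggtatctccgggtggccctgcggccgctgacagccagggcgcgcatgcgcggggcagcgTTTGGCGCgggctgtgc
Hells, chr19:38930740-38931039, plus strand: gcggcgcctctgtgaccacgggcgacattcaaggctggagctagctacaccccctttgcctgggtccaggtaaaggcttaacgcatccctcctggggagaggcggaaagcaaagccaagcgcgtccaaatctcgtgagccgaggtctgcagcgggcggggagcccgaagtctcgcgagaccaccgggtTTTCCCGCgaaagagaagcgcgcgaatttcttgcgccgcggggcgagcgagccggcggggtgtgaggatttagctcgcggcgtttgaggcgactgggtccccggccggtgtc
The Uhrf1 match began at position -185 from the start site and the Hells match at -62, while Dnmt1 had 2 matches, 1 of them on the opposite strand (GCGCGAAA). These windows held 33, 33 and 34 CpGs for Uhrf1, Dnmt1 and Hells, against a median of 7 over all promoters, and 11.7% of all promoters held 30 or more. Only windows with a match, which itself holds a CG, are shown for these genes. Another Uhrf1 start site (chr17:56303087-56303386) had no match and 12 CpGs. A match describes letters only, and 3′ counts do not tell start sites of a gene apart.

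For Dnmt3l, the member that was highest after meiosis, all windows are shown, whether or not they held a match. Its 3 start sites held 6, 4 and 3 CpGs, in capitals below, and 47.9% of all promoters held 6 or fewer.
Dnmt3l start 1, chr10:78042037-78042336, plus strand: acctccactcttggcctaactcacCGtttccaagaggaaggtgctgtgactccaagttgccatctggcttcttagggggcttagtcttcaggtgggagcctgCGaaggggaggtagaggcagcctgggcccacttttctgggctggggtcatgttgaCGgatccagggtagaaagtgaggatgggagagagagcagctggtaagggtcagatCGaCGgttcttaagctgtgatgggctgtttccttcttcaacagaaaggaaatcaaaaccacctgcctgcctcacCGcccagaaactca
Dnmt3l start 2, chr10:78049592-78049891, plus strand: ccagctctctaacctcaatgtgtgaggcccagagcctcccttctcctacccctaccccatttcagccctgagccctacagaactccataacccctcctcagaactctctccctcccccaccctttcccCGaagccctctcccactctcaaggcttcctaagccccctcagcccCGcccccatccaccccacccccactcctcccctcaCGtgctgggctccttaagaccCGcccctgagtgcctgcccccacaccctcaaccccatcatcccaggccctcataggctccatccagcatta
Dnmt3l start 3, chr10:78055085-78055384, plus strand: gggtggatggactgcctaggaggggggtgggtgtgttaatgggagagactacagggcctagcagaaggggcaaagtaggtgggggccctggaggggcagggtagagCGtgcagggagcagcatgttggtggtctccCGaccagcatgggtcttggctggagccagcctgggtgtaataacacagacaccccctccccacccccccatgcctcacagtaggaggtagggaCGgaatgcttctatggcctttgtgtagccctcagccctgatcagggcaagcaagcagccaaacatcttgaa
None of the 4 motif spellings was found in these 3 windows. The whole genes lie, in GRCm38 (GENCODE vM21), at chr17:56303321-56323486 (Uhrf1), chr9:20907209-20959888 (Dnmt1), chr19:38930915-38971051 (Hells), chr12:3806007-3914443 (Dnmt3a), chr2:153649450-153687730 (Dnmt3b), chr10:78041947-78063622 (Dnmt3l), chr10:62804570-62908996 (Tet1), chr3:133463679-133545139 (Tet2) and chr6:83362373-83459084 (Tet3). Dnmt3a, Dnmt3b, Dnmt3l, Tet2 and Tet3 each overlap a gene on the other strand that is also in the count table, for Dnmt3l the gene Aire and for Dnmt3a its antisense transcript Dnmt3aos. Whether the counting used strand and introns is not given in the sources used here, so reads from such pairs may have been shared.

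How the 9 genes are used without JQ1 was read from 8 control libraries (UC 1 to 3, VC-R 1 to 3, VC-T 2 and VC-T 3) as CPM, the UMIs of a gene scaled to the same total in every library and stage, which is not divided by transcript length and therefore compares stages of a gene, not genes with each other. Neighboring stages were compared within libraries by an exact two-sided sign-flip permutation test of log2(CPM + 1), for which the smallest p with 8 libraries is 0.00781, with Benjamini-Hochberg adjustment over 54 steps. The level dropped in 15 of the 17 steps that passed an adjusted p of 0.05 and rose in 2, those of Dnmt3a and Dnmt3l from diplotene/dividing spermatocytes to round spermatids. Adding 1 CPM makes changes between low levels smaller, while libraries without a UMI at a stage can make a mean step larger than pooled counts show. The Dnmt1 step into leptotene/zygotene, for example, was -4.87, with pooled control levels of 248 and 17.1 CPM.

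Uhrf1, the reader of hemimethylated DNA, was measured from spermatogonia to pachytene spermatocytes without a step that passed the test, and dropped afterwards. Its control level was 56.5 ± 24.3 CPM (SD, n = 6) in undifferentiated and 77.4 ± 29.7 CPM (SD, n = 8) in differentiating spermatogonia, 61.4 ± 16.7 CPM in leptotene/zygotene and 50.1 ± 7.15 CPM in pachytene spermatocytes. The first 3 steps along these stages did not pass the test (adjusted p of 0.260, 0.596 and 0.320). The level then dropped to 34.9 ± 4.56 CPM in diplotene/dividing spermatocytes, 9.06 ± 2.00 CPM in round and 2.57 ± 0.996 CPM in late spermatids. Each of these 3 steps went down in 8 of 8 libraries, by -0.51, -1.85 and -1.52 on the log2 scale (adjusted p = 0.0281, exact sign-flip test).

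Dnmt1 fell once differentiating spermatogonia gave way to meiotic cells. It stood at 162 ± 71.5 CPM (SD, n = 6) in undifferentiated and 247 ± 38.2 CPM (SD, n = 8) in differentiating spermatogonia, and at 13.7 ± 11.1 CPM in leptotene/zygotene spermatocytes, where the 8 libraries held 27 Dnmt1 UMIs together. The step of -4.87 on the log2 scale went down in 8 of 8 libraries (adjusted p = 0.0281, exact sign-flip test). Pachytene spermatocytes held 14.7 ± 2.50 CPM and diplotene/dividing spermatocytes 5.00 ± 3.05 CPM (-1.53), and round spermatids stood another -1.80 lower, the last 2 steps again with 8 of 8 libraries.

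Hells fell on entry into leptotene/zygotene and again into pachytene. Its level was 437 ± 98.0 CPM (SD, n = 6) in undifferentiated spermatogonia, 666 ± 156 CPM (SD, n = 8) in differentiating spermatogonia, 321 ± 119 CPM in leptotene/zygotene spermatocytes and 19.1 ± 2.94 CPM in pachytene spermatocytes. The drop into leptotene/zygotene was -1.08 and the drop into pachytene -3.95 on the log2 scale, both in 8 of 8 libraries (adjusted p = 0.0281, exact sign-flip test). In control leptotene/zygotene spermatocytes 236 of 519 cells had a Hells UMI (45.5%, median 2353 UMIs per cell), against 458 of 2640 pachytene cells (17.3%, median 8914 UMIs per cell). Control Leydig cells, which are not known for Hells, held a Hells UMI in 1 of 72 cells (1.39%, median 2966 UMIs per cell). Control Sertoli cells held one in 27 of 222 cells (12.2%, median 3688 UMIs per cell). The fall from diplotene/dividing spermatocytes to round spermatids was -2.55, again in 8 of 8 libraries.

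The de novo enzymes Dnmt3a and Dnmt3b were highest in spermatogonia. Dnmt3a stood at 46.3 ± 19.7 CPM (SD, n = 6) in undifferentiated and 64.8 ± 17.5 CPM (SD, n = 8) in differentiating spermatogonia and at 16.1 ± 13.5 CPM in leptotene/zygotene spermatocytes, a step of -2.53 in 8 of 8 libraries (adjusted p = 0.0281, exact sign-flip test). It fell again into pachytene (-3.04, 7 of 8 libraries, adjusted p = 0.0496) to 0.367 CPM, and rose from 1.22 CPM in diplotene/dividing spermatocytes to 2.77 ± 0.770 CPM in round spermatids (0.87, 7 of 8 libraries, adjusted p = 0.0496). Late spermatids held 2.40 ± 0.886 CPM. Dnmt3b stood at 60.0 ± 24.9 CPM (n = 6) and 78.6 ± 24.3 CPM in the spermatogonia stages and at 4.44 ± 5.98 CPM in leptotene/zygotene spermatocytes (-4.68, 8 of 8 libraries, adjusted p = 0.0281). It held 3.51 and 3.39 CPM through pachytene and diplotene and dropped by 1.41 on the log2 scale into round spermatids, to 0.582 CPM.

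Dnmt3l, the cofactor of both, peaked in round spermatids. Its level was at most 2.58 CPM on average from spermatogonia to pachytene, 5.55 ± 2.96 CPM in diplotene/dividing spermatocytes and 20.5 ± 2.46 CPM in round spermatids (SD, n = 8). That rise of 1.89 on the log2 scale was seen in 8 of 8 libraries (adjusted p = 0.0281, exact sign-flip test). In late spermatids it was 1.79 ± 0.585 CPM, a step of -2.96 on the log2 scale in 8 of 8 libraries.

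Of the erasers, Tet3 was the one with a measurable germ cell level. It stood at 61.5 ± 33.1 CPM (SD, n = 6) in undifferentiated and 85.0 ± 21.2 CPM (SD, n = 8) in differentiating spermatogonia and fell to 2.65 ± 5.84 CPM, 2 UMIs in all, in leptotene/zygotene spermatocytes (-5.56, 8 of 8 libraries, adjusted p = 0.0281, exact sign-flip test). From pachytene on its mean was at most 0.509 CPM. Tet1 and Tet2 passed the filter on low counts in no comparison, and in control differentiating spermatogonia 7 of 646 cells had a Tet1 UMI and 2 a Tet2 UMI. Tet2 was read in control Sertoli cells at 15.3 ± 4.08 CPM, from 16 UMIs. In macrophages of R, the group with the most of them, Tet2 was at 71.6, 22.9 and 56.2 CPM (8, 4 and 16 UMIs) and Tet3 at 62.6, 57.3 and 59.7 CPM (7, 10 and 17 UMIs). Sertoli cells, the somatic nurse cells of the tubule, also held Dnmt3a at 61.3 ± 29.3 CPM and Hells at 55.8 ± 30.4 CPM, from 74 and 70 UMIs. A single Sertoli cell held 16 of these Hells UMIs.

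**Figure D1:**
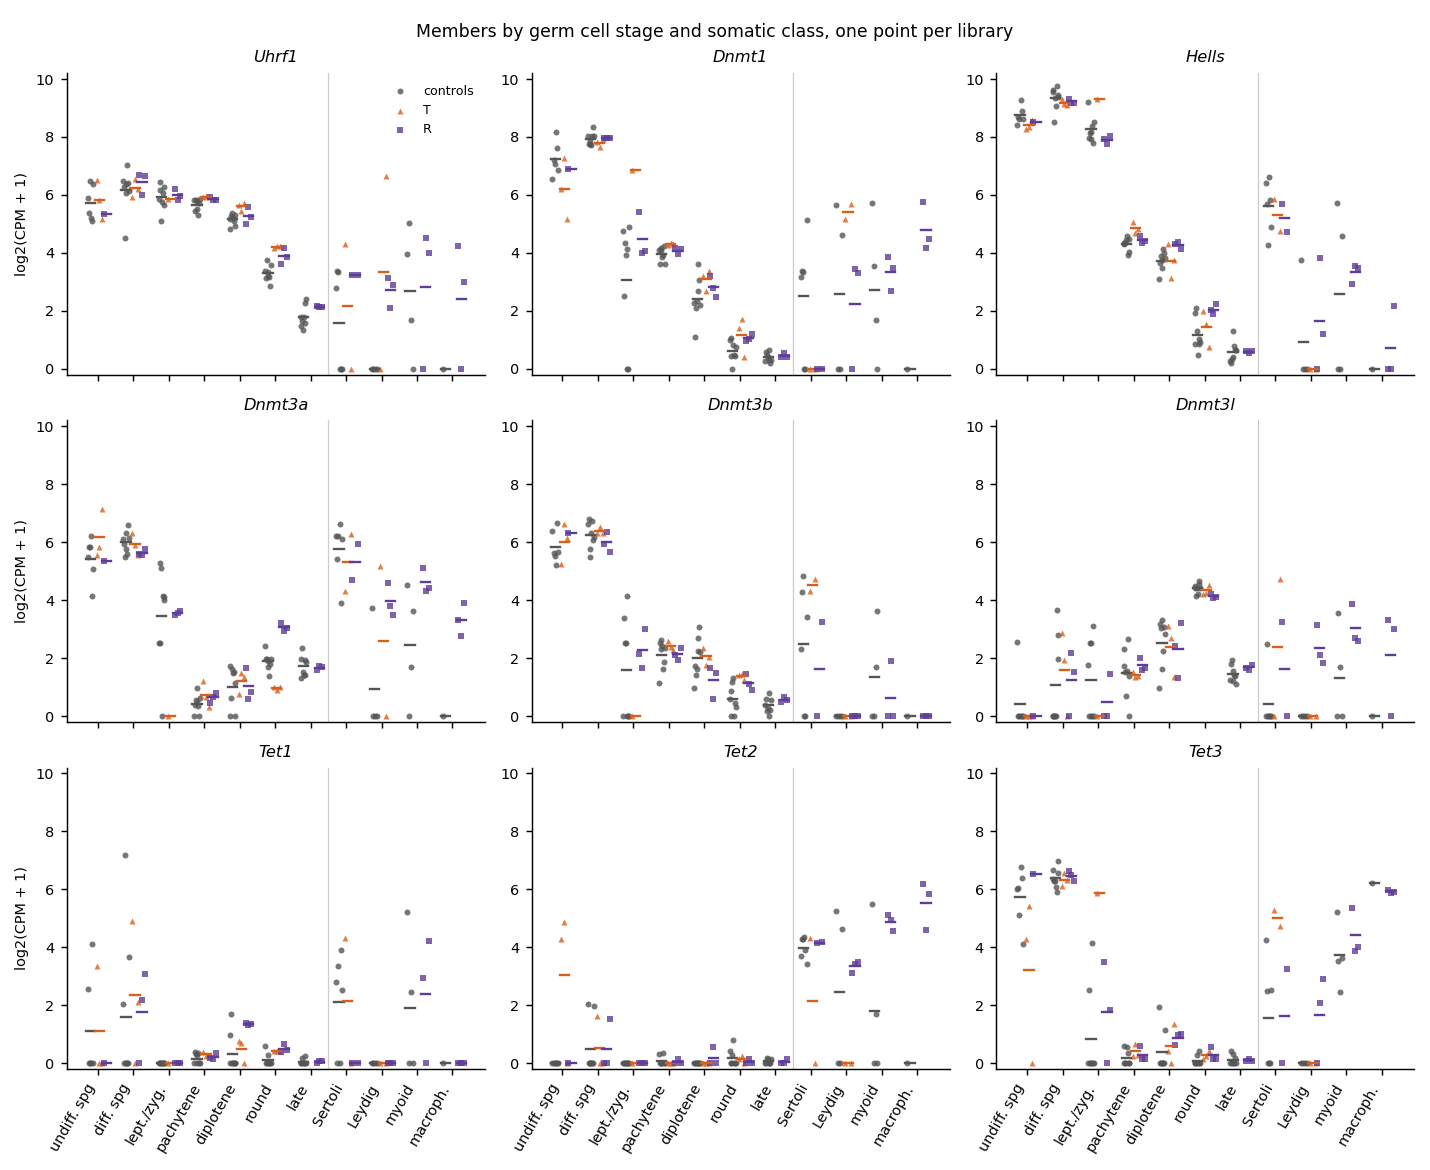
Level of each of the 9 genes, as log2(CPM + 1), along 7 germ cell stages and in 4 somatic classes. Each point is a library with 10 or more cells of that stage, with controls as grey circles (UC, VC-R, VC-T 2 and VC-T 3), T as orange triangles and R as purple squares. Bars mark the means of controls, T and R, each in its color. Dnmt1, Dnmt3a, Dnmt3b and Tet3 drop between differentiating spermatogonia and leptotene/zygotene spermatocytes, Hells drops again into pachytene, Uhrf1 declines after pachytene and Dnmt3l peaks in round spermatids at 20.5 CPM in controls.

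The genes whose control profile over these 11 stages and somatic classes was most like that of a member were taken by Pearson correlation of mean log2(CPM + 1) among 12934 genes that reached 20 CPM in at least 1 of them. The 11 points share libraries and depths, so r is a description. For Uhrf1 the nearest were Tspan33 (r = 0.989), Hmmr (0.985) and Fancd2 (0.984), for Hells Gigyf1 (0.991), Zcwpw1 (0.985) and Bc1 (0.984), and for Dnmt1 Nol9 (0.974), Shmt2 (0.965) and Tcf24 (0.965). Dnmt3a was nearest to Rps6ka3 (0.983), Gipc1 (0.982) and Kctd6 (0.972), and Dnmt3b to Wdcp (0.973), Syt9 (0.972) and Gss (0.972). The nearest genes of Dnmt3l were Kcnip4 (0.979), 1700123K08Rik (0.969) and 4921518K17Rik (0.968). Tet3 was nearest to Capg (0.965), Smagp (0.963) and Rcan3 (0.950), but its macrophage point came from 1 library and 1 Tet3 UMI (73.5 CPM). The macrophage point of every gene rests on that 1 control library. For Tet1 (Ndrg1 0.977, Bok 0.971, Spata13 0.967) and Tet2 (Serpinb6b 0.988, Gata4 0.985, Gm49708 0.985) the profile rests on few UMIs.

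The first question for JQ1 was which of the 9 genes differed directly after treatment. For each cell class the UMIs of a library were added up, and groups were compared across libraries with edgeR (quasi-likelihood test, Benjamini-Hochberg adjustment over all genes tested), where an adjusted p under 0.05 made a gene called. In round spermatids 2 members passed the filter on low counts and 1 was called, Uhrf1, which was higher in T, where 38.6% of all genes tested were called. In spermatogonia 6 members were tested and 0 called (2 at an unadjusted p under 0.05, 0 by DESeq2), with 5.54% of all genes called. In spermatocytes 5 were tested and 0 called (0 at an unadjusted p under 0.05, 0 by DESeq2), with 0.709% of all genes called.

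Uhrf1 in round spermatids was at 17.0, 17.9 and 17.7 CPM in T (153, 103 and 52 UMIs) and at 7.97, 6.29 and 11.1 CPM in UC (20, 18 and 49 UMIs). All 3 T libraries lay above all 3 UC libraries, and also above VC-T 2 and VC-T 3 at 9.42 and 7.79 CPM and the VC-R libraries at 12.6, 8.24 and 9.04 CPM. VC-T 1, the vehicle library that stands apart, was at 15.2 CPM. The mean was 17.5 ± 0.492 CPM in T and 8.45 ± 2.44 CPM in UC (SD, n = 3), a log2 fold change of 0.86 (SE 0.192, adjusted p = 0.00290), or 1.81-fold. It stayed called without each T or UC library, between 0.70 and 1.10. Uhrf1 also stands on a gene list that the study drew from these same libraries, so the difference is not independent evidence for that list.

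Against the same-age vehicle libraries VC-T 2 and VC-T 3, the Uhrf1 difference in round spermatids was 0.88 (SE 0.199, adjusted p = 0.00843). It was between 0.87 and 0.91 with each T library or VC-T 2 or VC-T 3 left out, called each time, and 0.59 (adjusted p = 0.175) when VC-T 1 was put back. In R against UC the difference was 0.45 (SE 0.210, adjusted p = 0.0771) and was not called, except without R 1 (0.56, adjusted p = 0.0388) or UC 3 (0.73, adjusted p = 0.0207). The difference between the T and R effects, each against its own vehicle, was 0.66 (adjusted p = 0.0900). The libraries of R were at 11.2, 17.1 and 13.4 CPM.

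Round spermatids of T and UC also differed in their makeup. The summed level of the 7 spermatocyte markers in this class was 768 to 807 CPM in T and 475 to 507 CPM in UC, that of the 5 spermatozoa markers 2915 to 3260 CPM in T and 4309 to 5029 CPM in UC, and Uhrf1 itself drops along these stages. When the same number of cells was drawn per cluster from every library, the Uhrf1 difference was 0.89 (adjusted p = 0.0252). Within cluster 2 of the round spermatids, led by 4930596D02Rik, Uhrf1 was at 8.75 to 9.98 CPM in T and 1.28 to 3.11 CPM in UC (47 and 6 UMIs), with 2.57 to 5.25 CPM in VC-R and 3.67 to 6.52 CPM in all 3 VC-T libraries. Within cluster 21 it was at 6.53 to 13.5 CPM in T and 1.08 to 4.80 CPM in UC (14 and 9 UMIs), with 1.13 to 4.66 CPM in VC-R and 0 to 3.82 CPM in all 3 VC-T libraries. In cluster 6, led by Gm6588 and with the Ssxb genes among its leading genes, T stood at 22.0 to 22.4 CPM and UC at 12.8 to 19.7 CPM. There VC-R was at 14.6 to 19.6 CPM, all 3 VC-T libraries at 15.3 to 21.6 CPM and R at 18.8 to 31.1 CPM. In cluster 7, also led by such genes, T and UC overlapped at 16.3 to 25.7 and 15.5 to 33.0 CPM. These within-cluster values are descriptions, and the part of the makeup in the difference was not otherwise tested.

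**Figure D2:**
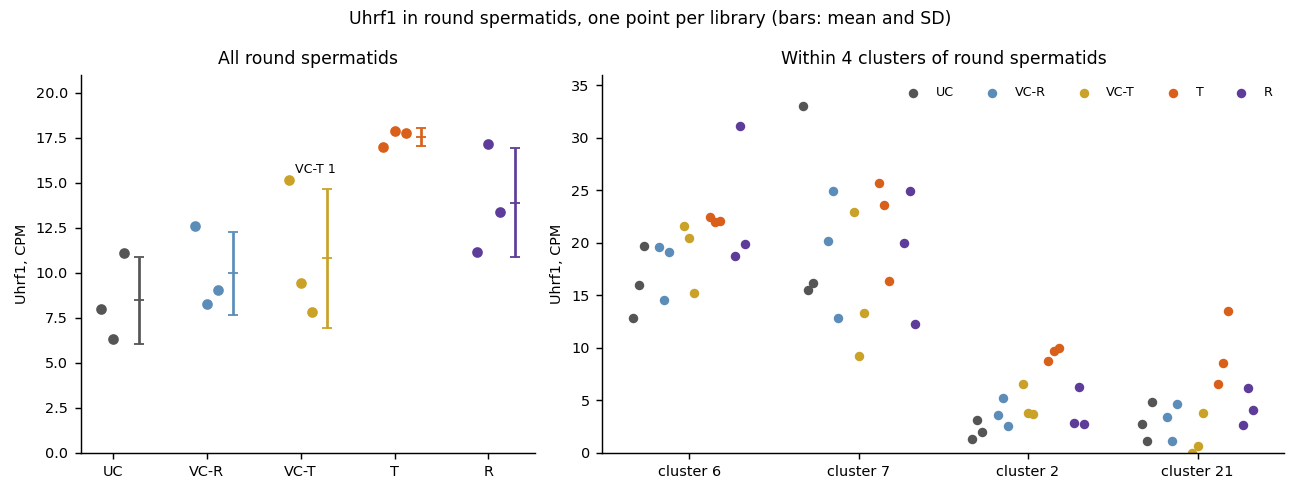
Uhrf1 in round spermatids as CPM, by library and group on the left with the mean and SD of each group, and within 4 clusters on the right. The T libraries lie at 17.0 to 17.9 CPM, above UC at 6.29 to 11.1 CPM, VC-T 1 is labelled at 15.2 CPM, and the separation of T from UC is seen in clusters 2, 21 and 6 but not in cluster 7. In cluster 6 the VC-T libraries reach 21.6 CPM beside T at 22.0 to 22.4 CPM.

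Uhrf1 in earlier cells of T did not pass the test. In spermatocytes the T libraries were at 57.3 to 59.4 CPM and UC at 38.4, 49.4 and 53.9 CPM, a difference of 0.20 (SE 0.108, adjusted p = 0.367). In pachytene spermatocytes it was 0.14 (SE 0.127, adjusted p = 0.555), in diplotene/dividing spermatocytes 0.42 (SE 0.215, adjusted p = 0.418) and in differentiating spermatogonia -0.19 (SE 0.292, adjusted p = 0.787). At these stages no member was called: of 6 tested in differentiating spermatogonia, 4 in pachytene and 2 in diplotene/dividing spermatocytes, 0 passed by edgeR or DESeq2 (1, 1 and 0 at an unadjusted p under 0.05), with 5.58%, 1.4% and 1.34% of all genes called.

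Dnmt3l in round spermatids was at 17.6, 18.1 and 22.2 CPM in T and 22.7, 24.1 and 20.6 CPM in UC, so the groups overlapped. The difference was -0.38 (SE 0.152, adjusted p = 0.0615) and was not called. With VC-T 2 and VC-T 3 as the control it was -0.28 (SE 0.184, adjusted p = 0.303). Without the 4 clusters that drew over 60% of their cells from R, it was -0.41 against UC (adjusted p = 0.0420) and -0.56 against VC-T 2 and VC-T 3 (adjusted p = 0.0144), and called in both. Leaving out T 3 or UC 3 also gave a call against UC (-0.45 and -0.52).

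In spermatogonia, Dnmt1 and Hells passed an unadjusted p of 0.05 and did not pass the adjusted one. Dnmt1 in differentiating spermatogonia was at 226, 200 and 242 CPM in T, 259, 325 and 263 CPM in UC and 248, 248 and 252 CPM in R, so every T library lay below every UC library. Its log2 fold change in the spermatogonia class was -0.35 (SE 0.169, adjusted p = 0.265). Hells in differentiating spermatogonia was at 637, 562 and 553 CPM in T and 859, 704 and 658 CPM in UC, again without overlap, and in the class it differed by -0.30 (SE 0.142, adjusted p = 0.255). Neither was called, and neither were Uhrf1 (-0.10), Dnmt3a (-0.04), Dnmt3b (0.07) and Tet3 (-0.32), whose adjusted p lay between 0.5999 and 0.975.

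The de novo enzymes and Tet3 overlapped between the groups in differentiating spermatogonia. Dnmt3a was at 78.6, 59.0 and 46.4 CPM in T, 47.1, 96.2 and 69.3 CPM in UC and 47.0, 46.0 and 53.7 CPM in R. Dnmt3b was at 78.6, 90.0 and 79.5 CPM in T, 106, 66.1 and 72.2 CPM in UC and 59.8, 81.4 and 50.0 CPM in R. Tet3 was at 68.3, 92.8 and 79.5 CPM in T, 58.8, 126 and 92.4 CPM in UC and 98.3, 88.5 and 77.8 CPM in R. In each of these 3 genes the T libraries lay within or across the range of UC. The T libraries held 262 to 587 CPM of spermatozoa markers in these cells and UC 860 to 2000 CPM, and the part of that in the Dnmt1 and Hells values was not tested.

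Same-age vehicle as the control gave further calls, which rest on VC-T 2 and VC-T 3. In T against VC-T, 0 of 6 members were called in spermatogonia (1 at an unadjusted p under 0.05; 13.2% of all genes called), 1 of 5 in spermatocytes (8.08%) and 2 of 4 in round spermatids (25.3%), the latter Uhrf1 and Dnmt3a. By stage, 1 of 6 was called in differentiating spermatogonia (13.7%) and 0 of 5 in pachytene spermatocytes (2 at an unadjusted p under 0.05, Hells and Dnmt3l; 25.7%). Dnmt3l in pachytene spermatocytes was at 1.88, 1.53 and 1.59 CPM in T and 3.93 and 2.34 CPM in VC-T 2 and VC-T 3 (-1.10, SE 0.414, adjusted p = 0.0539). The calls in spermatocytes and in differentiating spermatogonia were both Hells. The Dnmt3a call in round spermatids is not independent of the filter on low counts, as given with its values below.

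Hells in the spermatocyte class was at 30.5, 22.7 and 27.3 CPM in T, 60.1 CPM in VC-T 2 and 28.7 CPM in VC-T 3, a log2 fold change of -0.85 (SE 0.210, adjusted p = 0.0254), or 0.556-fold. The T libraries reached from 22.7 to 30.5 CPM, so VC-T 3 overlapped them, and without VC-T 2 the difference was -0.28 (adjusted p = 0.435). It was -0.56 (adjusted p = 0.415) with VC-T 1 put back and missed the threshold without T 2 (-0.73, adjusted p = 0.0709) or T 3 (-0.84, adjusted p = 0.121). Beside this, leptotene/zygotene cells, where Hells is high, made up 0.0458 to 0.605% of spermatocytes in T, 23.2% in VC-T 2, 14.2% in VC-T 3 and 0.197% in VC-T 1. Within pachytene spermatocytes alone the difference had the other sign, 0.39 (SE 0.154, adjusted p = 0.0632), with T at 32.8, 24.98 and 27.1 CPM and VC-T 2 and VC-T 3 at 18.7 and 19.3 CPM. Against UC the pachytene value was 0.58 (SE 0.175, adjusted p = 0.124), with UC at 14.2, 21.3 and 15.5 CPM, and it was called without UC 1 (0.54). In UC 1, 198 of its 480 pachytene cells came from a cluster made mostly of UC cells, and UC pachytene cells held 464 to 2766 CPM of spermatozoa markers.

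Hells in differentiating spermatogonia was at 755 and 794 CPM in VC-T 2 and VC-T 3, above the 553 to 637 CPM of T, and at 399 CPM in VC-T 1. The difference from VC-T 2 and VC-T 3 was -0.43 (SE 0.140, adjusted p = 0.0439). It was -0.21 (adjusted p = 0.884) with VC-T 1 put back, and missed the threshold without T 2 (-0.39), T 3 (-0.37) or VC-T 3 (-0.36), with adjusted p between 0.107 and 0.191. Against UC it was -0.31 (adjusted p = 0.226).

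After withdrawal, Dnmt3a and Hells were higher and Dnmt3l lower in round spermatids of R than of UC, and Uhrf1, the other member tested there, was not called. In R against UC, 3 of 4 members tested were called there (4 at an unadjusted p under 0.05, 3 by DESeq2), where 46.5% of all genes were called. In T against UC and in VC-R against UC only 2 members passed the filter on low counts in this class, Uhrf1 and Dnmt3l. Dnmt3a (4 to 13 UMIs per UC library) and Hells (2 to 4) thus entered R against UC through their R counts. Their calls there are not independent of that filter. In spermatogonia 0 of 6 (0.623% of all genes), in spermatocytes 0 of 5 (0.00728%) and in late spermatids 0 of 3 (6.75%) were called by edgeR, and 0 by DESeq2, with 0, 0 and 1 at an unadjusted p under 0.05. The last was Dnmt3l in late spermatids, 0.62 (SE 0.279, adjusted p = 0.197). In leptotene/zygotene spermatocytes 0 of 2 members were called (1 at an unadjusted p under 0.05; 1.68% of all genes), Hells at -0.35 (SE 0.173, adjusted p = 0.383). With the unnamed cluster counted as leptotene/zygotene, Dnmt1 passed the filter there and was called at -1.38 (SE 0.398, adjusted p = 0.0369), although without that cluster the levels were 41.2, 15.2 and 15.7 CPM in R and 16.5 and 28.5 CPM in UC 1 and UC 3, with no Dnmt1 UMI in UC 2.

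Dnmt3a in round spermatids was at 8.22, 6.64 and 7.18 CPM in R (53, 57 and 133 UMIs) and at 1.59, 2.45 and 2.94 CPM in UC (4, 7 and 13 UMIs). The VC-R libraries were at 2.88, 2.75 and 2.26 CPM, so all R libraries lay above all libraries of both control groups. The log2 fold change was 1.36 against UC (SE 0.284, adjusted p = 0.000339), or 2.56-fold, and 1.22 against VC-R (SE 0.259, adjusted p = 0.00551), or 2.33-fold. It stayed called with each R, UC or VC-R library left out. The VC-R libraries held 6 to 13 Dnmt3a UMIs, and Dnmt3a did not pass the filter in VC-R against UC. It was tested against VC-R only together with the R libraries, so that call is not independent of the filter either.

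Most Dnmt3a UMIs of R sat in a single group of cells. Of the 243 Dnmt3a UMIs in R round spermatids, 178 (73.3%) came from cluster 11, led by 4930509J09Rik and Kcnb2, and 210 (86.4%) from that cluster and 3 others in which over 60% of cells came from R. These 4 clusters had a median of 1277 to 1638 UMIs per cell, against 2227 to 7762 in clusters 2, 6, 7 and 21. They made up 71.1 to 88.2% of round spermatids in R, 12.7 to 21.8% in UC, 2.46 to 24.8% in VC-R, 5.30 to 8.06% in T, 2.45% in VC-T 1 and 79.3% in VC-T 2, and they held 66 of 647 round spermatids in VC-T 3. Within cluster 11 Dnmt3a was at 33.9 to 46.8 CPM in R, 35.5 to 73.5 CPM in UC (10 UMIs) and 39.2 CPM in VC-T 2, with 4 UMIs in VC-R and 1 UMI in the 130 T cells of that cluster. Inside the 4 clusters together it was at 12.97 to 22.9 CPM in R and 11.8 to 24.5 CPM in UC. Outside the 4 clusters it was at 0.792 to 2.12 CPM in R, 0.850 to 2.16 CPM in UC and 1.59 to 2.41 CPM in VC-R, so the groups overlapped on either side. With these clusters left out, or with equal numbers of cells per cluster, Dnmt3a no longer passed the filter on low counts. The 8 Sertoli markers, defining genes of a cell type in which Dnmt3a was also read, were all detected in R and summed to 87.8 to 106 CPM in R round spermatids, 34.3 to 50.3 CPM in UC and 6.43 to 21.8 CPM in T, and their part was not tested.

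**Figure D3:**
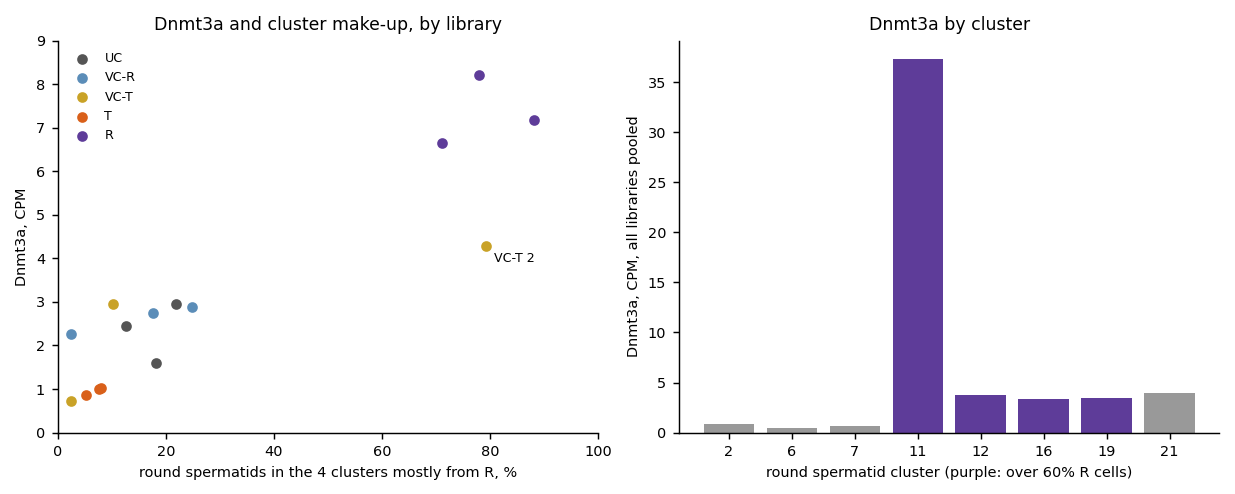
Left, Dnmt3a in round spermatids (CPM) of each library against the percentage of its round spermatids in the 4 clusters that drew over 60% of their cells from R, with VC-T 2 labelled; right, pooled Dnmt3a level (CPM) by round spermatid cluster. R libraries lie at 71.1 to 88.2% and 6.64 to 8.22 CPM, VC-T 2 at 79.3% and 4.30 CPM, and cluster 11 stands above the other clusters.

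In T the same gene was low. Dnmt3a in round spermatids was at 0.998, 0.869 and 1.02 CPM in T (9, 5 and 3 UMIs), below every UC library and below VC-T 2 and VC-T 3 at 4.30 and 2.96 CPM. VC-T 1 was at 0.721 CPM. It did not pass the filter in T against UC. The log2 fold change from VC-T 2 and VC-T 3 was -2.05 (SE 0.399, adjusted p = 0.00369), or 0.241-fold, and without VC-T 2 it was -1.86 (adjusted p = 0.0536). With VC-T 1 put back, or without the 4 clusters mostly from R, it did not pass the filter. Dnmt3a thus entered T against VC-T through the counts of VC-T 2 and VC-T 3 (26 and 11 UMIs). Its call there is not independent of that filter. Inside those clusters Dnmt3a was at 3.55 and 7.81 CPM in T 1 and T 2, from 1 UMI each, with no UMI in the 68 cells of T 3, and at 9.48 and 14.3 CPM in VC-T 2 and VC-T 3 (18 and 2 UMIs). Outside those clusters the T libraries were at 0.711 to 1.06 CPM and all 3 VC-T libraries at 0.733 to 2.51 CPM.

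Hells in round spermatids was at 3.10, 2.68 and 3.67 CPM in R (20, 23 and 68 UMIs) and at 0.797, 1.05 and 0.906 CPM in UC (2, 3 and 4 UMIs). The groups did not overlap, and the log2 fold change was 1.60 (SE 0.414, adjusted p = 0.00251), or 3.03-fold. The VC-R libraries ranged from 0.377 to 3.24 CPM, and against them the difference was 0.73 (SE 0.412, adjusted p = 0.182), or 1.31 and called (adjusted p = 0.0220) without VC-R 1. Hells did not pass the filter in VC-R against UC, so that call is not independent of the filter either. Of the 111 R UMIs, 84 (75.7%) came from the 4 clusters mostly from R, and outside them Hells was at 0.792 to 1.62 CPM in R, 0.721 to 0.850 CPM in UC and 0.381 to 3.57 CPM in VC-R. With these clusters left out, or with equal numbers of cells per cluster, Hells no longer passed the filter on low counts and was not called. In these cells the 6 spermatogonia markers summed to 14.9 to 15.9 CPM in R and 8.37 to 9.29 CPM in UC, and the Sertoli markers differed as given for Dnmt3a. Subtracting 5% of each sum as ambient RNA moved the fitted value to 7.19, where the UC libraries held 2 to 4 UMIs.

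Dnmt3l in round spermatids was at 17.5, 16.0 and 16.2 CPM in R (113, 137 and 301 UMIs) and at 22.7, 24.1 and 20.6 CPM in UC, so all R libraries lay below all UC libraries. The log2 fold change was -0.65 (SE 0.143, adjusted p = 0.000574), or 0.639-fold. VC-R was at 16.6, 20.3 and 17.7 CPM and overlapped R, with a difference of -0.39 (SE 0.155, adjusted p = 0.0684), which was called at -0.50 (adjusted p = 0.00871) without VC-R 1. Within R, Dnmt3l was at 11.9 to 13.1 CPM in the 4 clusters mostly from R and at 17.4 to 20.2 CPM elsewhere, where UC stood at 20.6 to 23.8 CPM. Without the 4 clusters the difference from UC was -0.32 (adjusted p = 0.138), and with equal numbers of cells per cluster -0.36 (adjusted p = 0.212).

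In R against VC-R, 1 of 4 members was called in round spermatids, Dnmt3a (33.7% of all genes called). That call is not independent of the filter on low counts. In R against VC-R, 0 of 6 were called in spermatogonia, 0 of 5 in spermatocytes and 0 of 3 in late spermatids (0, 0 and 1 at an unadjusted p under 0.05, with 0%, 0% and 0% of all genes called). The last was Uhrf1 in late spermatids, at 3.48, 3.39 and 3.39 CPM in R and 2.16, 1.54 and 2.42 CPM in VC-R, a difference of 0.71 (SE 0.238, adjusted p = 0.211) from groups that did not overlap. The untreated libraries were at 3.87, 2.00 and 4.31 CPM, on both sides of R.

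The 2 control groups were compared in the same way. In VC-R against UC, 0 of 6, 0 of 5, 0 of 2 and 0 of 3 members were called by edgeR in spermatogonia, spermatocytes, round spermatids and late spermatids (0, 0, 0 and 1 at an unadjusted p under 0.05), with 0%, 0%, 0% and 0.216% of all genes called. Uhrf1 in late spermatids gave the nominal value, -0.73 (SE 0.322, adjusted p = 0.617). In round spermatids Uhrf1 differed by 0.17 (SE 0.258) and Dnmt3l by -0.28 (SE 0.177) between these controls. T against UC and R against UC share the UC libraries, so their values are not independent of each other.

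**Figure D4:**
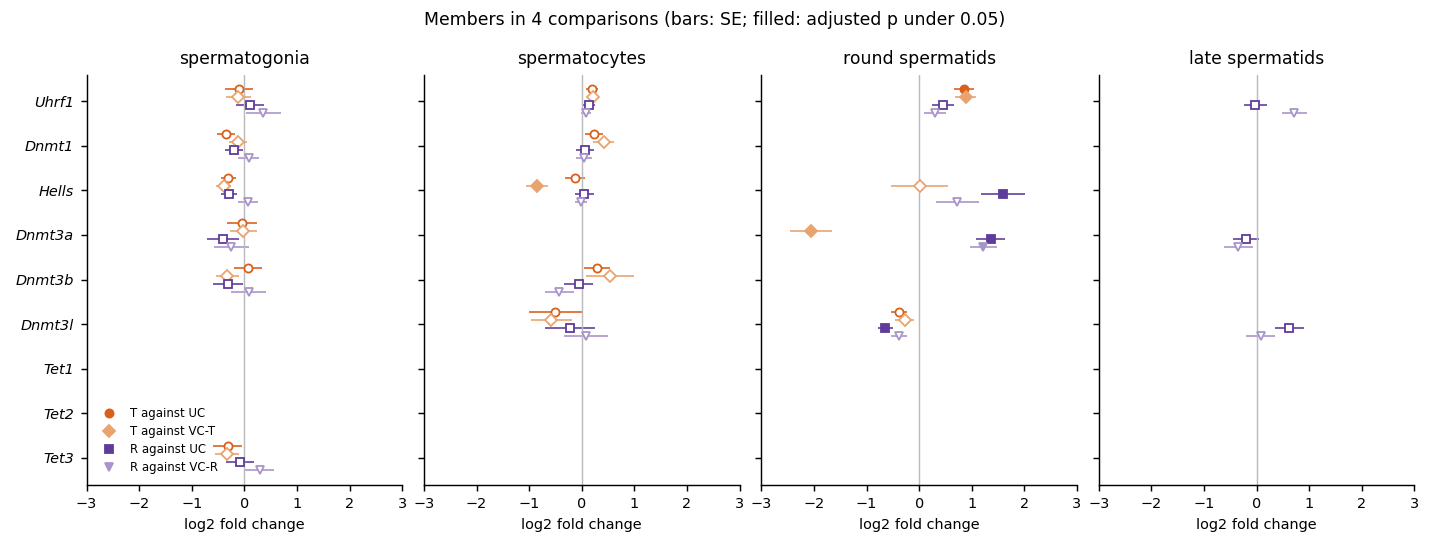
Log2 fold change with SE of each member in T against UC, T against VC-T 2 and VC-T 3, R against UC and R against VC-R (x axis) in 4 germ cell classes; filled symbols passed an adjusted p of 0.05 in edgeR's test, and rows without a symbol were below the filter on low counts, as Tet1 and Tet2 were throughout. Calls are seen in round spermatids (Uhrf1 up in T, Dnmt3a up in R and down in T against VC-T, Hells up and Dnmt3l down in R against UC) and for Hells in spermatocytes of T against VC-T. The Dnmt3a calls, and that of Hells in R against UC, are not independent of the filter on low counts.

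Genes that work with the 9 members were followed in 6 lists of 55 genes in all: partners of maintenance methylation, methyl-CpG readers, genes for removal of oxidized bases, germline factors for transposon methylation, the methyl donor cycle and S-phase genes. In round spermatids 31 of the 55 were tested in either comparison. In T against UC 5 were higher and 3 lower, and in R against UC 5 were higher and 6 lower, beside 38.6% and 46.5% of all genes called. In T the maintenance partners gave 0 higher and 1 lower of 5 tested (median 0.12), the readers 1 and 1 of 3 (-0.15), oxidized base removal 1 and 1 of 4 (0.14), transposon methylation 2 and 0 of 6 (0.16), the methyl donor cycle 0 of 6 (0.15) and S-phase genes 1 and 0 of 7 (0.03), where the median log2 fold change over all genes was 0.04. In R the same lists gave 0 and 2 of 5 (-0.14), 3 and 0 of 4 (0.52), 0 and 2 of 3 (-0.50), 1 and 1 of 6 (0.08), 0 of 6 (-0.06) and 1 and 1 of 7 (-0.17), with a median over all genes of 0.06. Outside round spermatids, 1 of 38 was called in spermatogonia of T (Mael), 1 of 26 in late spermatids of R (Cxxc5, -0.32) and 0 in spermatocytes of T (of 38), spermatocytes of R (of 41) and spermatogonia of R (of 35).

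The called list genes with the largest differences in T were Gadd45b, Rrm1, Pld6, Mael and Mbd2. Gadd45b, a stress-induced gene linked to DNA demethylation, was at 4.44, 3.30 and 3.41 CPM in T and 0.398, 0.350 and 1.59 CPM in UC (1, 1 and 7 UMIs), a difference of 1.92 (SE 0.459, adjusted p = 0.00456). With so few UC UMIs it passed the filter on low counts through its T counts. Its call and its place among the largest differences are not independent of that filter. Rrm1, a subunit of ribonucleotide reductase, was at 26.96, 25.5 and 23.5 CPM in T and 14.3, 13.6 and 16.1 CPM in UC (0.65, SE 0.146, adjusted p = 0.00292). Pld6, a mitochondrial enzyme of the piRNA pathway that guides transposon silencing, was at 21.2, 20.7 and 24.2 CPM in T and 16.7, 9.44 and 12.7 CPM in UC (0.63, SE 0.183, adjusted p = 0.0144). All T libraries lay above all UC libraries in these 3 genes, which were picked for being called, where 38.6% of all genes were called. The share of all genes without overlap was not counted, so this adds nothing to the calls. Mbd2, a reader of methylated CpGs, was at 30.1, 31.1 and 29.7 CPM in T and 36.6, 36.4 and 37.4 CPM in UC (-0.42, SE 0.117, adjusted p = 0.0118). Mael, also of the piRNA pathway, was called in spermatogonia, at 243, 337 and 342 CPM in T and 224, 203 and 194 CPM in UC (0.59, SE 0.178, adjusted p = 0.0427).

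In R the 5 were Mbd4, Lig1, Zbtb4, Cxxc5 and Tdrd9, all in round spermatids. Calls over all genes there fell from 6644 to 703 with equal numbers of cells per cluster. The part of the 4 clusters mostly from R in these 5 genes was not tested. Mbd4, a glycosylase that binds methylated CpGs, was at 24.96, 18.1 and 22.3 CPM in R and 7.57, 7.34 and 11.8 CPM in UC (1.01, SE 0.184, adjusted p = 7.65e-05). VC-T 2, whose spermatids also lay mostly in the 4 clusters named above, held Mbd4 at 19.3 CPM, against 9.67 CPM in VC-T 3. Zbtb4, another methyl-CpG reader, was at 4.96, 4.54 and 5.13 CPM in R and 1.59, 2.45 and 3.17 CPM in UC (0.74, SE 0.299, adjusted p = 0.0446). At UC levels as low as those of Dnmt3a, it passed the filter on low counts with the help of its R counts. Its call and its place among the largest differences are not independent of that filter. Tdrd9, a helicase of the piRNA pathway, was at 65.9, 49.9 and 66.3 CPM in R and 29.1, 30.1 and 39.9 CPM in UC (0.64, SE 0.124, adjusted p = 0.000161). Of the genes that were lower, Lig1, the replicative DNA ligase, was at 3.72, 4.08 and 4.16 CPM in R and 5.98, 5.60 and 5.89 CPM in UC (-0.74, SE 0.242, adjusted p = 0.0136). Cxxc5, a CpG-binding protein related to Tet2, was at 128, 127 and 121 CPM in R and 158, 181 and 166 CPM in UC (-0.64, SE 0.0853, adjusted p = 1.35e-06). The R and UC libraries did not overlap in these 5 genes, which were picked for being called, where 46.5% of all genes were called. The share of all genes without overlap was not counted, so this adds nothing to the calls.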

How the data were processed

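Single-cell RNA sequencing counts were deposited by the authors as 15 matrices of whole-number UMI counts, 1 per mouse, made per the labels with Cell Ranger 3.0.0 and mm10, while the matrix headers name Cell Ranger 7.0.0, and whether introns were counted is not given in the sources used here. Barcodes passed as cells with 500 or more genes, 1000 or more UMIs and less than 30% of UMIs from mitochondrial genes, and 5.4% of cells per library were removed as likely doublets. Cells were clustered (leidenalg 0.10.2, resolution 1.2, 30 components of 2000 variable genes without the 9 genes and the list genes) and named from markers. Counts were summed per library and class or stage where every library compared had 10 or more cells, and tested in R 4.3.3 with edgeR 4.0.16 (TMM scaling, filterByExpr, quasi-likelihood test, Benjamini-Hochberg adjustment over all genes tested), with DESeq2 1.42.0 as an alternative. CPM is the share of a gene among the UMIs of those cells in a library, scaled to the usual fixed total, and SE is the size of the log2 fold change divided by the square root of F. The test was first run on simulated data. No pair of libraries within a group agreed within sampling noise (chi-square per degree of freedom 2.526 to 22.08). The study's own correction for free RNA was not repeated, and subtraction of 5% of each sum was an alternative. Named genes were the 9 members, the 3 genes nearest to each in profile, and the 5 called list genes with the largest change per comparison. Members and lists were chosen with earlier results of these data known. Alternatives covered scaling, filters, cell selection, control groups, left-out libraries and a replicate block.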

Additional observations from a re-analysis of the deposited data

Results flagged for a closer look

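The Dnmt3a difference from same-age vehicle in round spermatids changed between the time points. The log2 fold change of T against VC-T 2 and VC-T 3 minus that of R against VC-R was -3.21 (adjusted p = 4.32e-05, edgeR's quasi-likelihood interaction test with Benjamini-Hochberg adjustment). In the same test 5842 of 15428 genes passed. All 3 T libraries (0.869 to 1.02 CPM) lay below VC-T 2 and VC-T 3, and all 3 R libraries (6.64 to 8.22 CPM) lay above VC-R. With VC-T 1 put back the difference was -2.69 (adjusted p = 0.0233), without VC-T 2 it was -3.004 (adjusted p = 0.00176), without VC-T 3 it was -3.33, and without each VC-R library in turn it lay between -3.17 and -3.32. Dnmt3a did not pass the filter on low counts in T against all 3 VC-T libraries. With VC-T 1 put back it therefore entered this test through the R counts. Neither of the differences set against each other here is independent of the filter on low counts. The T libraries held 17 Dnmt3a UMIs in this class and the R libraries 243, of which 86.4% lay in the 4 clusters mostly from R. These clusters also held 79.3% of the round spermatids of VC-T 2, and their part in the difference was not tested. The time points also differ in age and in the age of their vehicle controls.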

How the results depend on the processing

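Members called in T against UC in round spermatids numbered 1, and 3 without a filter on low counts, 0 under the study's added fold rule, 2 with all 5 groups in the fit, 2 in cells of 2000 or more UMIs, 2 without the clusters mostly from R, 2 with VC-T 2 and VC-T 3 as the control, 0 with all 3 VC-T libraries, and 1 to 3 with a library left out. In spermatocytes the number was 0, and 1 with VC-T 2 and VC-T 3 as the control. In R against UC in round spermatids it was 3, and 0 without the clusters mostly from R, 0 with equal cells per cluster and 1 with VC-R as the control. Leaving out a library gave 0 to 1 in pachytene spermatocytes of T against UC. In T against VC-T it was 0 in spermatogonia, 1 by differentiating spermatogonia alone and 0 to 1 with a library left out (Hells, -0.53 without VC-T 2); 1 in spermatocytes, 0 by pachytene alone, 0 with all 3 VC-T libraries and 0 to 2 with a library left out (Dnmt3b joined without VC-T 3); and 2 in round spermatids, 0 with all 3 VC-T libraries and 1 to 2 with a library left out. In R against VC-R in round spermatids it was 1, 0 without the clusters mostly from R (0 of 12662 genes called) and 1 to 3 with a library left out. The 3 came without VC-R 1, where 7282 of 15222 genes were called. In T against all 3 VC-T libraries, 1 of 13599 genes was called in round spermatids and 86 of 13238 in spermatocytes. Calls over all genes moved with these settings, so the member counts are not a result about the members. For the other settings the share over all genes is not given beside them. With the unnamed cluster counted as leptotene/zygotene, R against UC gave 1. The alternatives were planned, apart from those added after seeing the data (the cluster and vehicle settings). The cause of these changes was not tested. Of 492 values under alternatives of the 27 member values that were not called, 50 had the other sign and 7 were called.

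Over all genes, edgeR and DESeq2 called 392 and 128 in spermatogonia of T against UC, 88 and 686 in spermatocytes of T, 41 and 0 in spermatogonia of R, and 1 and 381 in spermatocytes of R. The all-gene calls behind the shares printed beside the members moved further: in round spermatids of T from 4754 to 1 with all 3 VC-T libraries as the control, in round spermatids of R from 6644 to 703 with equal cells per cluster, in spermatocytes from 88 to 1273 (T) and from 1 to 1322 (R) without the pachytene cluster mostly from UC, in spermatogonia of T between 0 (all 3 VC-T libraries) and 1222 (VC-T 2 and VC-T 3), in late spermatids of R from 868 to 0 with VC-R as the control, and in spermatocytes of T to 0 without T 2. Same-numbered mice did not pair: correlations of their deviations ran from -0.342 to 0.612, and with the replicate block no member call changed, while calls in spermatocytes of T against UC went from 88 to 357. All 17 stage steps kept their call with 10 CPM added and with VC-T 1 put back. Tet1 and Tet2 were too shallow for any test.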

Other observations

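Tet1 was read in few cells at a time. In differentiating spermatogonia of all 15 libraries, 40 Tet1 UMIs came from 17 of 1577 cells, and 6 of those cells held 3 or more. In VC-R 1, 13 UMIs came from 2 of 29 cells (7 and 6 UMIs), which set its level at 142.9 CPM. In T 1, 14 UMIs came from 5 of 275 cells.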
